A study of Mus musculus with 12 samples.

Results

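Autophagy genes of mouse B cells were followed across germinal centre (GC) B cells and plasmablasts: Wipi1, Atg5, Atg7, Becn1, Map1lc3b, Sqstm1, Ulk1, Gabarapl1 and Trp53inp1. They were chosen by name, as the rows whose Entrez gene ID maps to these 9 symbols, and are 9 of the 27179 genes in the count table. The choice of these genes and of the lists used below was made with earlier results of these data known. Counts of them beside the share of all genes are therefore descriptive only. All 9 passed the filter on low counts that left 13131 genes for testing. The study asked what the loss of the transcription factor c-Myb (gene Myb) or of the histone acetyltransferase MOZ (gene Kat6a, called Moz in the labels) does to the transcriptome of B cells responding to antigen. It comprised 12 polyA RNA libraries in 6 groups of 2, each library made from pooled, sorted cells of 2 to 8 mice of the C57BL/6 strain.

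All mice had been immunised with the hapten-protein conjugate NP-KLH in alum. In the Myb experiment, control mice carried Myb fl/fl alleles without cre and knockout mice carried Myb fl/fl with CD23-cre T/+, so the presence of cre and the loss of Myb cannot be told apart. Their GC B cells were sorted on day 12, and their plasmablasts were sorted on day 5 after a boost of NP-KLH in PBS. In the Moz experiment, GC B cells were sorted on day 7 from AID-cre T/+ controls and from Moz fl/fl AID-cre T/+ knockouts, so both Moz groups carried the cre. CD23-cre is active in mature B cells and AID-cre in activated, mainly GC, B cells. Mice are pooled within a library, so n = 2 pools per group throughout and the spread between single mice is not seen.

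Autophagy encloses cytoplasm, organelles or protein aggregates in a double membrane, the autophagosome, and delivers them to the lysosome. The ULK1 kinase complex starts the process, a class III phosphatidylinositol 3-kinase built around Beclin 1 makes the lipid PI3P, PI3P-binding proteins of the WIPI family recruit the conjugation enzymes, and these attach ATG8 proteins such as LC3 to the growing membrane, where cargo receptors dock. Antibody-secreting cells are known to depend on autophagy, which limits their endoplasmic reticulum and sustains their survival.

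Promoters of genes that were higher in plasmablasts are shown first, so that the regulatory sequence of Wipi1, which had the largest difference of the 9, can be read beside those of other members. RefSeq promoter windows (GRCm38.p6, the release of the mm10 build) matched 7 of the 9 genes, all but Becn1 and Trp53inp1. The 250 bases upstream of the start are given 5′ to 3′ on the strand of the gene for the 4 of these genes that were higher in plasmablasts and whose window ends next to the annotated gene start. Capitals mark GGGCGG, the GC box bound by Sp family factors, or its reverse complement CCGCCC. Wipi1 lies at chr11:109611390-109611639 on the minus strand, Gabarapl1 at chr6:129532942-129533191 on the plus strand, Sqstm1 at chr11:50210821-50211070 on the minus strand and Map1lc3b at chr8:121590188-121590437 on the plus strand.
Wipi1: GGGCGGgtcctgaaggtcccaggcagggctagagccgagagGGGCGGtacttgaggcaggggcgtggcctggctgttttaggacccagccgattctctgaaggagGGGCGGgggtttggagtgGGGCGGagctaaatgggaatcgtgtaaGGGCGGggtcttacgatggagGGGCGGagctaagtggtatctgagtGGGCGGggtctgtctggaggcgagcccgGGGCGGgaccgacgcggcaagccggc
Gabarapl1: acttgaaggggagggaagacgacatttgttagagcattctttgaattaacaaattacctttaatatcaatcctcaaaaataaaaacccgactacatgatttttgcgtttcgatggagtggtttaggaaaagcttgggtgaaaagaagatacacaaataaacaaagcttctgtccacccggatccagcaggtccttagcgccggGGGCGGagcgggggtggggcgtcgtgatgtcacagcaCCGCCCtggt
Sqstm1: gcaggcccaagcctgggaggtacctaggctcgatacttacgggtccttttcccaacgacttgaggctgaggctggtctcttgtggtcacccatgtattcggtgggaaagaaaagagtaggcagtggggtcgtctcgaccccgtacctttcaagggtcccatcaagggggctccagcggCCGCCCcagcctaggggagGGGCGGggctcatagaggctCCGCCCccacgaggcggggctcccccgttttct
Map1lc3b: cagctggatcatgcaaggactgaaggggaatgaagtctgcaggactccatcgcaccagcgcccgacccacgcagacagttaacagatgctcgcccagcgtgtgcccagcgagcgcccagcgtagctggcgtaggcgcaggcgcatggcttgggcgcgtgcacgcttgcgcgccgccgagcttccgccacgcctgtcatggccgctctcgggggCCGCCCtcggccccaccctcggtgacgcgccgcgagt

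The Wipi1 window held 8 copies of GGGCGG, all on the strand of the gene, in a sequence of 67.2% G and C. Of 32851 promoter windows of the same length, 51 (0.155%) held at least 8, a count looked up after the copies were seen. At least 1 copy was found in 6 of the 7 matched promoters (all but Atg7) and in 32.7% of all windows. The E-box CACGTG, to which the TFEB family of lysosomal regulators binds, was found in Atg5 and Atg7, 2 of 7 against 6.02% of all windows. The Atg7 window (chr6:114670846-114671095) lies inside the gene, downstream of its annotated start at 114643127. Its E-box and its lack of GGGCGG therefore do not describe the promoter at that start. The Atg5 window (chr10:44268089-44268338) runs past the annotated start of Atg5 at 44268322, and its E-box lies just downstream of that start. Neither E-box was thus upstream of the annotated start of its gene. The palindromic CLEAR element of lysosomal genes, a longer sequence that contains CACGTG, was in 0 of 7 (0.24% of all windows). On both strands, 0 of 7 held TGACGTCA, a cAMP response element (1.55%), GTAAACA, a forkhead motif (3.17%), or TGACGTGG, a motif of the unfolded protein response (0.563%). Only these exact sequences were searched, so close variants of the motifs were not counted. Such matches describe the letters of the window and nothing more.

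The libraries held 8285934 to 24801297 counts. Immunoglobulin genes took 65.0 to 70.0% of the counts in plasmablasts and 1.59 to 9.16% in GC B cells, so levels are given as CPM, counts scaled to library size with TMM, which estimates each library's scale from genes other than the extreme ones, with TMM factors of 0.392 to 0.450 in plasmablasts and 1.45 to 1.73 in GC B cells. The sorts carried their markers: relative to control GC B cells, 7 of 7 plasma cell markers were higher and 7 of 7 GC markers lower in control plasmablasts (edgeR adjusted p at most 0.05). Markers of T cells summed to 3.14 to 8.75 CPM and of erythroid cells to 0.290 to 1.89 CPM in the 12 libraries. Whole-gene counts of Myb and Kat6a do not check the deletions, since the position of the floxed exons was not given: Myb was 14.0 and 11.5 CPM in control and 13.0 and 11.6 CPM in knockout GC pools, and Kat6a was 82.0 and 73.4 CPM in control and 66.4 and 93.7 CPM in knockout pools. Pool 1 of the Myb knockout GC B cells, labelled as 2 female mice, held transcripts of the Y-linked genes Ddx3y and Eif2s3y at 67.2 and 54.1 CPM without TMM scaling, so the Myb knockout values of the 9 genes are also given without it where they are called or named. A gene without a symbol took 4.51 and 3.71% of the counts in the day 12 control GC pools against 0.392 to 0.538% in the other GC libraries, so both comparisons that use those controls among GC B cells carry that difference. It took 0.0799 and 0.128% in control plasmablasts, so the control comparison of cell types carries a difference too, as does the difference between the Myb effects. The part of that gene in these comparisons was not tested. In bulk RNA, fewer cells of a type and less RNA per cell cannot be told apart.

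The comparison of cell types asked how autophagy genes stand in plasmablasts against GC B cells of the same genotype. Plasmablasts were sorted on day 5 after a boost and GC B cells on day 12, so cell type, boost and day cannot be told apart. Pools also differed in the Y-linked Ddx3y (CPM without TMM scaling). It was 43.1 and 12.2 in control plasmablasts and 17.7 and 0.483 in control GC B cells. In knockout pools it was 41.6 and 4.85 in plasmablasts and 67.2 and 0.323 in GC B cells. The part of sex was not tested. Of the 9 genes, 7 were higher in control plasmablasts than in day 12 control GC B cells and 0 were lower, by edgeR's quasi-likelihood test with Benjamini-Hochberg adjustment over all genes. The background was 25% of all tested genes higher and 28.1% lower. The median log2 fold change of the 9 was 1.28, against -0.17 over all tested genes. Wipi1, Trp53inp1 and Gabarapl1 differed most, Atg5, Sqstm1 and Map1lc3b less, Ulk1 least among those that passed, and Atg7 and Becn1 did not pass. The libraries of the cell types did not overlap, with plasmablasts higher, for 8 of the 9 genes (all but Becn1), against 34.4% of all genes, and 41.3% of all genes were lower without overlap. In Myb knockout pools the same comparison called 7 of 9 higher and 0 lower (background 24.4% and 27.2%), with a median of 1.53. There 9 of 9 lay higher without overlap, against 32.9% of all genes, with 41% of all genes lower. Without the sex-mismatched GC pool, 7 of the 9 were still called in the knockout comparison, with log2 fold changes of 8.14 for Wipi1, 4.01 for Trp53inp1, 2.71 for Gabarapl1, 1.57 for Atg5, 1.43 for Ulk1, 1.38 for Map1lc3b and 1.31 for Sqstm1, and Atg7 (0.25) and Becn1 (0.066) were again not called.

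**Figure D1:**
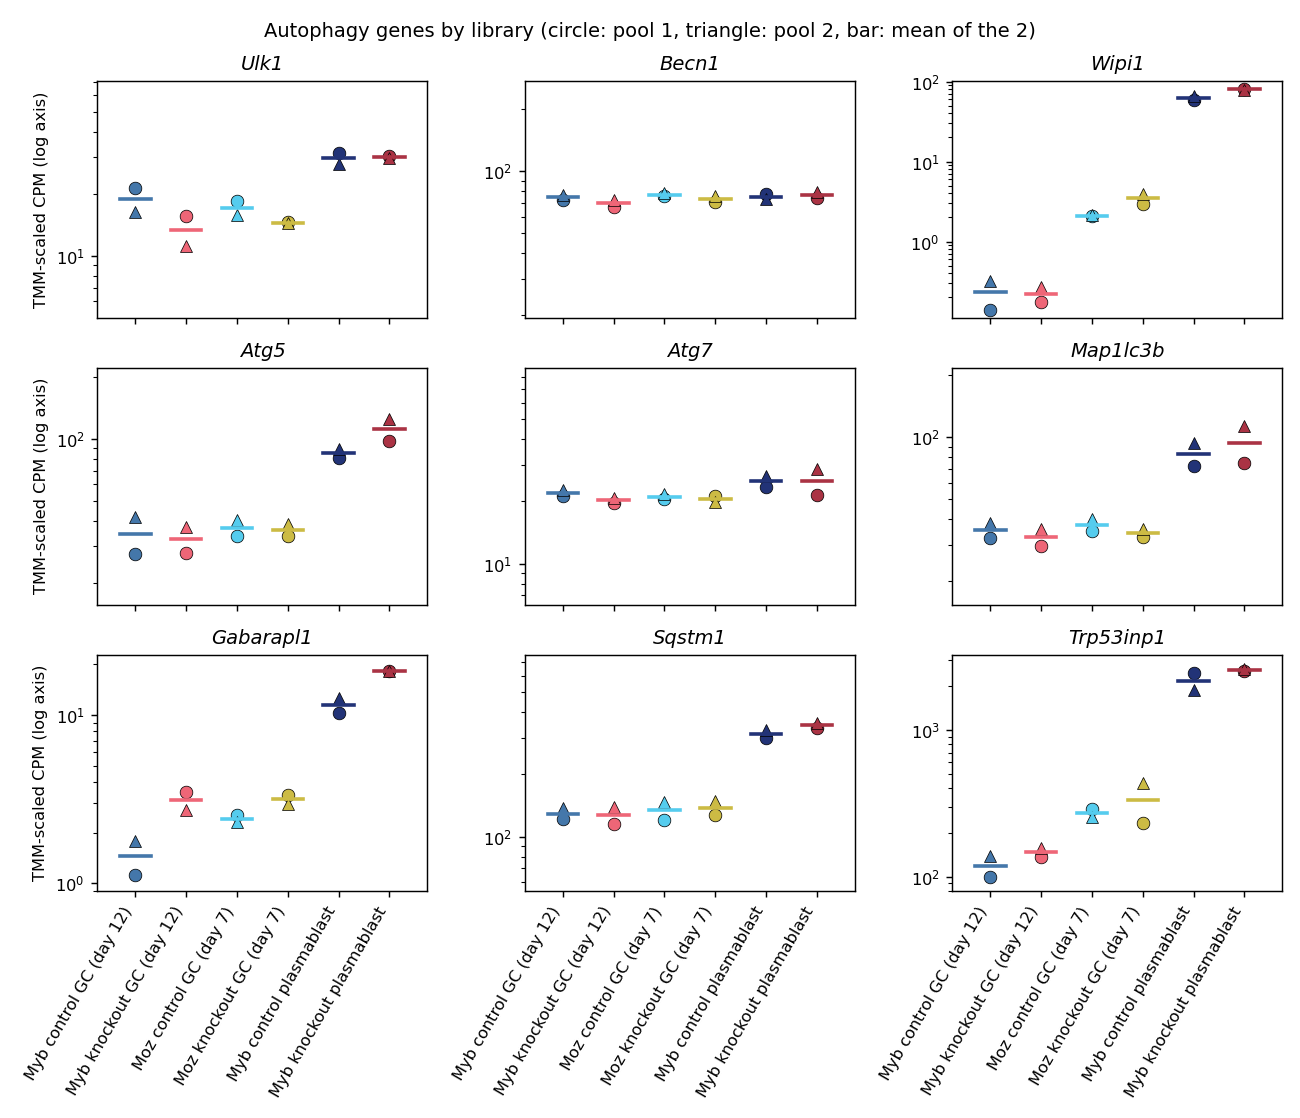
TMM-scaled CPM (log axis, its range set for each gene) of the 9 genes in all 12 libraries, with circles for pool 1, triangles for pool 2 and bars for the mean of the 2. Wipi1 spans from under 0.33 CPM in day 12 GC B cells to over 58 CPM in plasmablasts, while Becn1 stays between 67.4 and 79.2 CPM.

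Ulk1 (mm10 chr5:110784489-110810120) encodes the kinase that starts autophagosome formation. It was counted at 21.3 and 16.3 CPM in day 12 control GC B cells and at 31.6 and 27.7 CPM in control plasmablasts. The groups did not overlap, and the log2 fold change was 0.66 (SE 0.22, edgeR adjusted p = 0.0230). That call was lost without pool 2 of the control GC B cells (0.46, adjusted p = 0.185), without pool 1 of the control plasmablasts (0.55, adjusted p = 0.137) and without the low-count filter (0.58, adjusted p = 0.0618). In Myb knockout pools Ulk1 was 15.7 and 11.2 CPM in GC B cells and 30.6 and 29.8 CPM in plasmablasts, a log2 fold change of 1.17 (SE 0.22, edgeR adjusted p = 0.000857).

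Becn1 (chr11:101288258-101302286) encodes Beclin 1, the scaffold of the PI3-kinase complex. Its 12 libraries lay between 67.4 and 79.2 CPM, and its log2 fold change between control plasmablasts and GC B cells was 0.01 (SE 0.16, edgeR adjusted p = 0.958). In the GENCODE M21 annotation of this build, all exons of Becn1 joined span 7065 bases, and 43.9% of these are shared with Cntd1 on the opposite strand. The deposited counts use a Becn1 length of 2031 bases, so that share does not describe the counted exons. Whether reads were counted by strand was not stated in the labels. How many of the counted reads lie in shared bases is thus not known.

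Wipi1 (chr11:109573521-109611389) encodes a beta-propeller protein that binds PI3P on forming autophagosomes. In day 12 GC B cells it was near the limit of detection, with 2 and 4 counts (0.140 and 0.322 CPM) in the control pools and 3 and 4 counts (0.174 and 0.274 CPM) in the Myb knockout pools. In plasmablasts it had 652 and 526 counts (58.6 and 66.0 CPM) in control and 626 and 688 counts (81.2 and 78.9 CPM) in knockout pools. Every plasmablast library was thus far above every GC library of the series, the highest of which had 3.95 CPM. The summed counts gave a control plasmablast level 275 times that of day 12 control GC B cells (95% interval 126 to 750, counting error only), and the fitted log2 fold change was 8.07 (SE 0.33, edgeR adjusted p = 8.00e-08). That SE was derived from the test statistic, and at so few GC counts the counting interval is the wider guide. In Myb knockout pools the ratio was 364 (interval 176 to 908) and the log2 fold change 8.46 (SE 0.33, edgeR adjusted p = 1.49e-07). It stayed between 8.14 and 8.78 when any 1 of these 4 knockout libraries was left out, the sex-mismatched pool included.

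The 3 paralogs of Wipi1 did not show a difference of that size. Wipi2, the other close WIPI protein, was 63.8 and 51.3 CPM in control GC B cells and 60.9 and 60.2 CPM in control plasmablasts (log2 0.07, SE 0.19, edgeR adjusted p = 0.766). Wdr45, which encodes WIPI4, was higher in plasmablasts with TMM scaling at 42.8 and 57.6 CPM against 12.8 and 12.8 CPM (log2 1.97, SE 0.24, edgeR adjusted p = 3.10e-05). With scaling by total counts it was 0.07 (adjusted p = 0.756). Wdr45b, which encodes WIPI3, had a log2 fold change of 0.49 (SE 0.17, edgeR adjusted p = 0.0319) with TMM and of -1.40 with scaling by total counts. Per length, mean levels in control plasmablasts were 34.3 RPKM for Wipi1, 32.0 for Wdr45, 15.5 for Wipi2 and 11.6 for Wdr45b. In day 12 control GC B cells the order was different, with 14.7 RPKM for Wipi2, 8.28 for Wdr45b, 8.16 for Wdr45 and 0.127 for Wipi1. The differences between the paralogs' fold changes were not tested.

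Of the conjugation enzymes, Atg5 (chr10:44268322-44364299), a part of the complex that attaches ATG8 proteins to lipid, was 27.6 and 41.5 CPM in control GC B cells and 80.4 and 89.4 CPM in control plasmablasts. The groups did not overlap, and the log2 fold change was 1.30 (SE 0.25, edgeR adjusted p = 0.000897). Atg7 (chr6:114643127-114860604), the E1-like enzyme that activates ATG8 proteins, was 21.2 and 22.7 CPM in control GC B cells and 23.6 and 26.5 CPM in control plasmablasts. Although these pools did not overlap, Atg7 did not pass (log2 0.19, SE 0.19, edgeR adjusted p = 0.426). In knockout pools Atg5 had a log2 fold change of 1.78 (edgeR adjusted p = 0.000100), and Atg7 one of 0.31 (adjusted p = 0.193).

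Of the ATG8 proteins, Map1lc3b (chr8:121590438-121598760), which encodes LC3B, the usual marker of autophagosomes, was 32.6 and 38.5 CPM in control GC B cells and 72.5 and 93.5 CPM in control plasmablasts. The groups did not overlap, and the log2 fold change was 1.22 (SE 0.23, edgeR adjusted p = 0.000983). Gabarapl1 (chr6:129533192-129542331), of the GABARAP branch, was far scarcer in GC B cells, with 16 and 22 counts (1.12 and 1.77 CPM) in the control pools. In control plasmablasts it had 115 and 100 counts (10.3 and 12.6 CPM), a ratio of summed counts of 7.91 (95% interval 5.59 to 11.5, counting error only). Its log2 fold change was 2.99 (SE 0.30, edgeR adjusted p = 6.76e-06) in control and 2.54 (SE 0.27, edgeR adjusted p = 1.40e-05) in knockout pools. The noncoding gene 1700101I11Rik shares 28.3% of the 2013 GENCODE exon bases of Gabarapl1 on the opposite strand, so reads counted for Gabarapl1 may include some from that gene. The deposited length of Gabarapl1 is 1773 bases, so the share within the counted exons is not known.

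Sqstm1 (chr11:50200152-50210820) encodes p62, a receptor that brings ubiquitin-marked cargo to LC3. It was 121 and 137 CPM in control GC B cells and 301 and 329 CPM in control plasmablasts, without overlap, with a log2 fold change of 1.28 (SE 0.20, edgeR adjusted p = 0.000264). Knockout plasmablasts, at 337 and 357 CPM, lay above knockout GC B cells at 115 and 139 CPM (log2 1.45, edgeR adjusted p = 0.000115). The opposite-strand gene Mrnip shares 17.3% of the 3356 GENCODE exon bases of Sqstm1, whose deposited length is 2000 bases, so the share within the counted exons is not known.

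Trp53inp1 (chr4:11156441-11174379) encodes a p53-induced nuclear protein that also binds ATG8 proteins. It was 99.1 and 139 CPM in day 12 control GC B cells and 2438 and 1872 CPM in control plasmablasts, a log2 fold change of 4.18 (SE 0.36, edgeR adjusted p = 1.93e-06). In knockout pools it was 137 and 157 CPM in GC B cells and 2511 and 2598 CPM in plasmablasts (log2 4.12, SE 0.35, edgeR adjusted p = 2.51e-06). Per length it was the most abundant of the 9 in control plasmablasts, at 397 ± 73.7 RPKM (SD, n = 2), ahead of Sqstm1 at 157 ± 9.83 RPKM. In day 12 control GC B cells Sqstm1 led at 64.6 ± 5.42 RPKM, followed by Becn1 at 36.7 ± 1.48 RPKM and Trp53inp1 at 21.9 ± 5.18 RPKM.

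The scale decides the sign for part of the list. With libraries scaled by total counts alone, where most plasmablast counts are immunoglobulin, the median of all tested genes moved to -2.04 in control pools. On that scale Wipi1 (6.19), Trp53inp1 (2.32) and Gabarapl1 (1.11) were still higher in control plasmablasts, while Atg5 (-0.58), Map1lc3b (-0.67), Sqstm1 (-0.60), Ulk1 (-1.22), Atg7 (-1.70) and Becn1 (-1.87) were lower, each with an edgeR adjusted p of at most 0.05. All 9 remained above the median gene on either scale. With immunoglobulin genes left out and the remaining total used, Wipi1 (7.74), Trp53inp1 (3.87), Gabarapl1 (2.67), Atg5 (0.98), Sqstm1 (0.96) and Map1lc3b (0.90) were still called higher, Ulk1 (0.33) was not, and Atg7 (-0.13) and Becn1 (-0.31) had estimates below 0 that did not pass. The median of all tested genes was -0.48 there, and the part of immunoglobulin in these shifts was not tested.

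**Figure D2:**
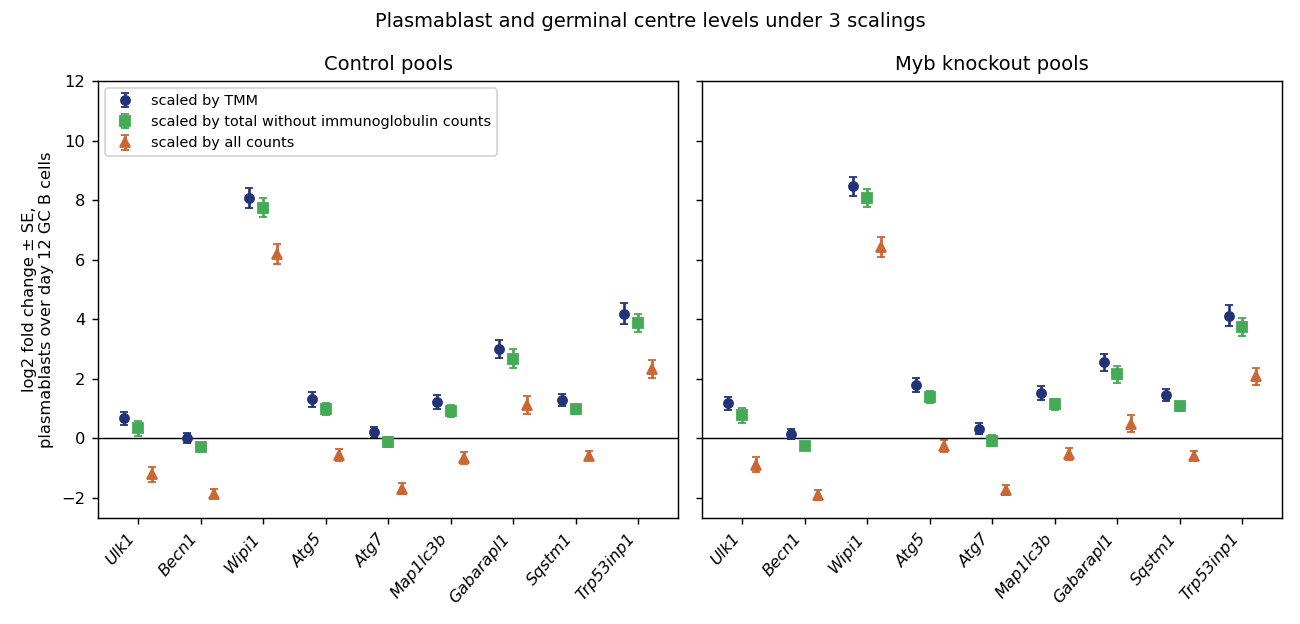
Log2 fold change (± SE derived from the test statistic) of plasmablasts over day 12 GC B cells for the 9 genes, in control pools (left) and Myb knockout pools (right), under 3 scalings shown by colour. Wipi1, Trp53inp1 and Gabarapl1 lie above 0 in all 3, while Ulk1, Atg5, Map1lc3b and Sqstm1 lie above 0 with TMM and below 0 when all counts set the scale.

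The rest of the pathway was read from a list of 70 further autophagy and lysosome genes, 69 of which were tested. In control plasmablasts 37 of the 69 were higher and 9 lower than in control GC B cells (25% and 28.1% of all tested genes), with a median log2 fold change of 0.62. In knockout pools 35 were higher and 8 lower. With scaling by total counts the split in control pools became 8 higher and 46 lower, where 8.44% of all tested genes were called higher and 75.2% lower, and 58 of the 69 were above the median gene on that scale as on the TMM scale.

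By role, on the TMM scale, where 25% of all tested genes were higher and 28.1% lower, and with the 9 genes counted in, the genes for PI3P effectors and lipid transfer (8 of 10 higher, 0 lower), ATG8 proteins (4 of 5 higher, 0 lower), the ULK complex (4 of 5 higher, 1 lower) and cargo receptors (9 of 13 higher, 3 lower) were mostly higher. The conjugation enzymes (3 of 11 higher, 0 lower) and the class III PI3-kinase group (1 of 8 higher, 1 lower) mostly did not pass. Fusion and lysosome genes were higher in 10 of 19 and lower in 2, and nuclear regulators higher in 5 of 7 and lower in 2. These counts are from control pools. In Myb knockout pools 5 of 10 PI3P effectors were higher, with 4 of 5 ATG8 proteins, 4 of 5 of the ULK complex and 9 of 13 cargo receptors. In control pools with immunoglobulin genes left out and the remaining total used, 5 of 10 PI3P effectors were higher (19.9% of all tested genes). With scaling by total counts more genes were called lower than higher in each of these roles: 6 lower and 1 higher among PI3P effectors, 3 and 1 among ATG8 proteins, 3 and 1 in the ULK complex, 8 and 2 among cargo receptors, 10 and 0 among conjugation enzymes, 8 and 0 in the PI3-kinase group, 11 and 4 among fusion and lysosome genes, and 3 and 2 among nuclear regulators.

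The called genes of this list with the largest differences included the endoplasmic reticulum autophagy receptors Ccpg1 and Calcoco1 and genes of lysosomal hydrolases. Ccpg1 was 9.64 and 9.35 CPM in control GC B cells and 394 and 381 CPM in control plasmablasts (log2 5.35, SE 0.28, edgeR adjusted p = 1.05e-07), and Calcoco1 had a log2 fold change of 3.15. The proteases Ctsl, Ctsb and Ctsd had log2 fold changes of 4.73, 3.30 and 2.88, and Gla, which encodes alpha-galactosidase A, one of 2.90. Myeloid markers moved in the same direction: the 7 summed to 34.4 and 12.9 CPM in control GC B cells and to 91.1 and 45.8 CPM in control plasmablasts, and Cd68, itself a lysosomal protein (log2 2.23), Adgre1 (2.37) and Csf1r (2.70) were called higher. In Myb knockout pools the sums of the 7 overlapped, at 44.1 and 11.5 CPM in GC B cells and 82.1 and 40.7 CPM in plasmablasts. Over all 12 libraries the sum ran from 11.5 to 91.1 CPM. None of Cd68, Adgre1, Csf1r, Lyz2 and Itgam was at 0 in any library (S100a8 was in 2 and S100a9 in 1). The part of the myeloid markers in the lysosomal values was not tested. Among the nuclear regulators Foxo3 had 3.12 and Mitf 5.11, though Mitf rested on 2 counts in the control GC pools (ratio of summed counts 38.5, 95% interval 10.2 to 326).

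Lower in control plasmablasts was Optn, which encodes the receptor optineurin, at 52.7 and 27.5 CPM in control GC B cells and 1.53 and 2.64 CPM in control plasmablasts (log2 -4.30, SE 0.51, edgeR adjusted p = 2.80e-05). Rubcn, whose product rubicon restrains the PI3-kinase complex, went from 329 and 256 CPM to 28.1 and 21.2 CPM (log2 -3.56, SE 0.26, edgeR adjusted p = 7.38e-07). Tfeb (-2.45), the lysosomal transcription factor, Plekhm1 (-1.48), a fusion adaptor, Retreg1 (-1.45) and Fundc1 (-0.92), receptors for endoplasmic reticulum and mitochondria, Atg101 (-0.93), of the ULK complex, and Foxo1 (-0.79) were also called lower on the log2 scale.

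**Figure D3:**
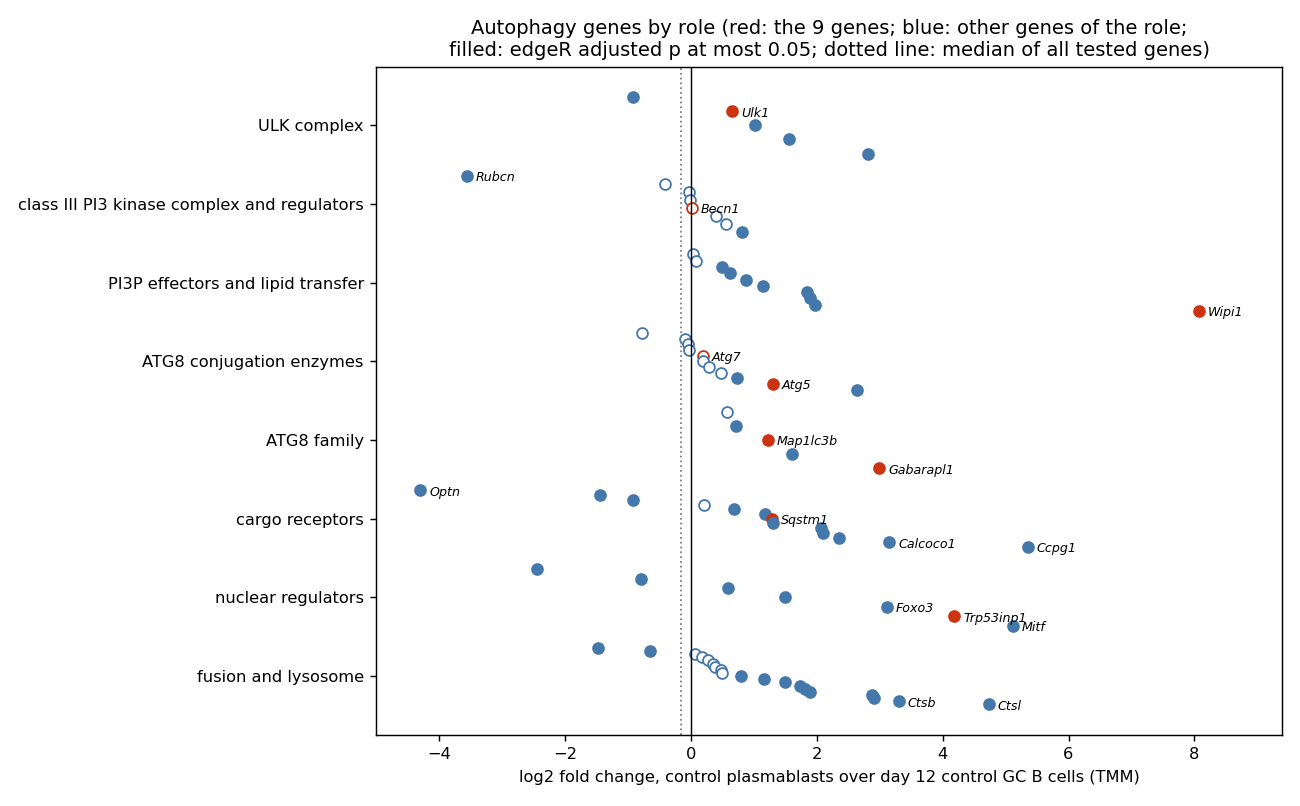
Log2 fold change of control plasmablasts over day 12 control GC B cells (TMM) for the tested autophagy genes, in rows by role, with the 9 genes in red, the others in blue, filled where the edgeR adjusted p was at most 0.05, and a dotted line at the median of all genes. Wipi1, at 8.07, lies farthest to the right, and Optn, at -4.30, farthest to the left; with scaling by total counts Ulk1, Atg5, Map1lc3b and Sqstm1 fall below 0.

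Day 7 and day 12 controls were compared to see how the 9 genes vary among GC B cells. Here the day, the experiment and the genotype (AID-cre T/+ on day 7, Myb fl/fl without cre on day 12) cannot be told apart. The Y-linked Ddx3y differed as well, at 108 and 82.1 CPM without TMM scaling on day 7 and 17.7 and 0.483 CPM on day 12. The mix of sexes thus goes with the day too, and its part was not tested. Wipi1 was the single called gene of the 9, against a background of 1.08% of genes called higher. It had 61 and 77 counts (2.06 and 2.15 CPM) in day 7 controls against 2 and 4 counts on day 12, so the groups did not overlap. The ratio of summed counts was 9.38 (95% interval 4.20 to 26.0, counting error only), and the log2 fold change 3.18 (SE 0.38, edgeR adjusted p = 0.00284). The call was lost without pool 1 of the day 12 controls (2.68, adjusted p = 0.0631) and held in the other 10 alternative settings, with adjusted p from 3.81e-09 to 0.0203.

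Trp53inp1 was 289 and 254 CPM in day 7 controls against 99.1 and 139 CPM on day 12, without overlap, and did not pass (log2 1.19, SE 0.32, edgeR adjusted p = 0.132). With the replicate number as a block its estimate was 1.23 (SE 0.23, adjusted p = 0.00984), and 2 of 9 were called against a background of 5.48% of genes called in either direction. The dates are nested within the experiments and the day 7 and day 12 pools share none, so that block takes the spread between dates out of the error of this comparison and is no paired test of it. DESeq2 also called Trp53inp1 (adjusted p = 0.00506). Gabarapl1 was 2.53 and 2.31 CPM on day 7 and 1.12 and 1.77 CPM on day 12 (log2 0.75, SE 0.30, edgeR adjusted p = 0.479). Groups did not overlap, with day 7 higher, for 3 of the 9 genes, against 19.2% of all genes. The other 6 had log2 fold changes between -0.14 (Ulk1) and 0.10 (Atg5). Of the 69 further genes, Ccpg1 alone was called (25.1 and 25.7 CPM on day 7, log2 1.42, SE 0.24, edgeR adjusted p = 0.0169), and that call was lost when any 1 of the 4 control pools was left out. The same block, with the same limit, called 8.

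Plasma cell markers moved with these values. The 7 markers summed to 926 and 1476 CPM in day 12 controls, 4602 and 4851 CPM in day 7 controls, 5984 and 7155 CPM in Moz knockout pools and 104664 to 143507 CPM in plasmablasts, and 5 of 7 were called higher on day 7. Jchain made up most of these sums, with means of 1018 CPM in day 12 controls, 4296 CPM in day 7 controls, 6032 CPM in Moz knockout pools and 116793 CPM in control plasmablasts. None of the 7 was at 0 in any library. Expressed as a percentage of the mean control plasmablast level, Wipi1 was 0.371% in day 12 controls, 3.37% in day 7 controls and 5.56% in Moz knockout GC B cells. For Jchain, the joining chain of secreted antibody, these percentages were 0.872, 3.68 and 5.17%, and for Sdc1, which encodes the plasma cell surface protein CD138, they were 0.248, 3.71 and 5.48%. The other markers followed different courses. Prdm1 was at 1.77, 5.97 and 7.99%, Xbp1 at 2.56, 5.70 and 6.44%, and Irf4 at 5.84, 9.82 and 16.0%. Bhlha15 was at 0.502, 4.56 and 7.08% and Tnfrsf17 at 0.501, 8.17 and 12.0%. Trp53inp1 stood at 5.52, 12.6 and 15.5%, Gabarapl1 at 12.6, 21.2 and 27.6%, and Ccpg1 at 2.45, 6.55 and 8.83%. The part of plasma-type cells or transcripts in the Wipi1 values of the GC libraries was not tested.

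**Figure D4:**
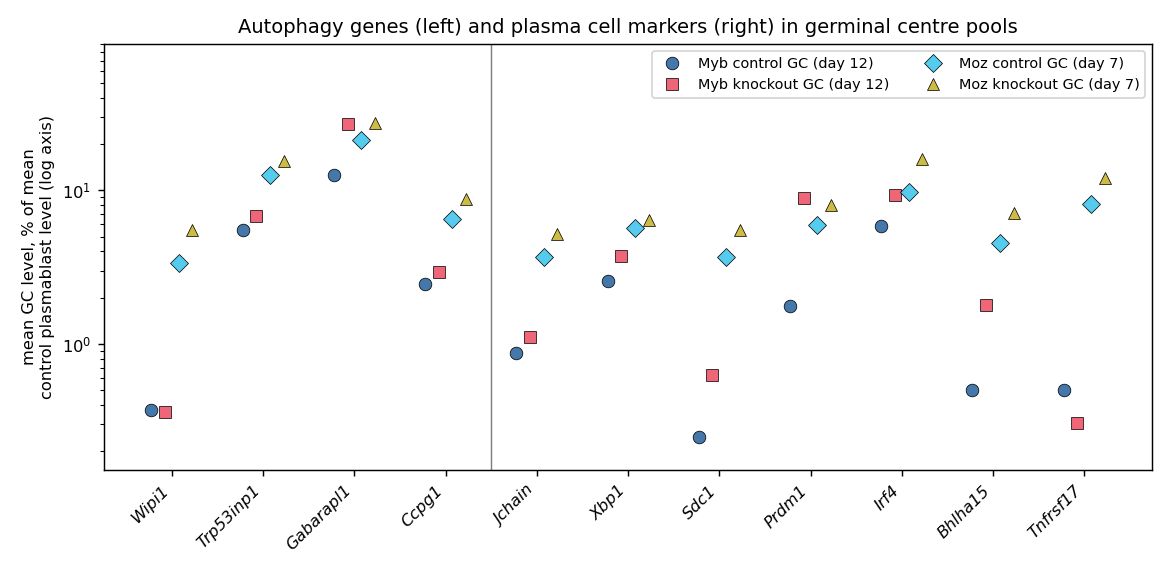
Mean level in each GC group as a percentage of the mean control plasmablast level (TMM CPM, log axis) for 4 autophagy genes (left) and 7 plasma cell markers (right), with a symbol for each GC group. Wipi1 goes from 0.371% in day 12 controls to 3.37% in day 7 controls, beside Jchain, which goes from 0.872 to 3.68%.

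Over all 12 libraries, the 5 of 11770 compared genes whose log2 CPM had the highest Pearson correlation with Wipi1 were Jchain (0.995), Kdelr3 (0.994), Mospd1 (0.993), Eef1akmt3 (0.993) and Tmem176a (0.991). Over the 8 GC libraries alone they were Jchain (0.992), Plpp5 (0.983), Mospd1 (0.981), Slc3a2 (0.980) and Aldh3a2 (0.979). These values describe libraries that share cell type, day and depth. Among the 9 genes, Wipi1 was most like Trp53inp1 (0.985) and least like Becn1 (0.442) over the 12 libraries.

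Loss of Myb was compared next, first in GC B cells on day 12. None of the 9 genes was called, with edgeR (background 0.259%, 755 genes with an unadjusted p under 0.05, 2 of them among the 9) or with DESeq2. Gabarapl1 was 3.48 and 2.74 CPM (60 and 40 counts) in knockout against 1.12 and 1.77 CPM (16 and 22 counts) in control pools, without overlap. Its log2 fold change of 1.12 (SE 0.30) did not pass (unadjusted p = 0.00343, edgeR adjusted p = 0.249, and 0.0923 with the replicate block). Without the sex-mismatched knockout pool it was 0.93 (adjusted p = 0.906). Ulk1 was 15.7 and 11.2 CPM in knockout against 21.3 and 16.3 CPM in control pools, also without overlap, and did not pass (log2 -0.49, SE 0.22, edgeR adjusted p = 0.832; -0.75 without the sex-mismatched pool, adjusted p = 0.757). Wipi1, at 3 and 4 counts against 2 and 4, gave a ratio of 0.979 with an interval of 0.282 to 3.52, so a difference within that range was not detectable at this depth. The other 6 had log2 fold changes between -0.12 (Atg7) and 0.31 (Trp53inp1). Groups did not overlap in 1 of the 9 upwards and 2 downwards, against 13.8% and 11.8% of all genes. Plasma cell markers were mixed between the same groups. Tnfrsf17 (log2 -0.67) had an estimate below 0, and Jchain (0.35), Xbp1 (0.54), Irf4 (0.67) and Sdc1 (1.32) above 0, without a call. The other 2 of 7 were called higher (Prdm1, log2 2.34, and Bhlha15, log2 1.83). Without the sex-mismatched pool neither was called (2.04, adjusted p = 0.130, and 1.96, adjusted p = 0.0759), and the count over all genes fell from 34 to 3. In the same comparison Wipi1 had a log2 fold change of -0.03 (SE 0.58), or 0.05 with scaling by total counts and 0.28 without the sex-mismatched pool. Their part in these values was not tested.

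In plasmablasts none of the 9 was called either (edgeR background 0.0381%, 496 genes with an unadjusted p under 0.05, 1 of them among the 9, and 0 called by DESeq2). Gabarapl1 was 18.2 and 18.1 CPM in knockout against 10.3 and 12.6 CPM in control plasmablasts, without overlap (log2 0.67, SE 0.26, unadjusted p = 0.0238, edgeR adjusted p = 1). Wipi1 was 81.2 and 78.9 CPM against 58.6 and 66.0 CPM, without overlap (log2 0.36, SE 0.20, edgeR adjusted p = 1). Atg5 was 97.3 and 125 CPM against 80.4 and 89.4 CPM, without overlap (log2 0.39, SE 0.24, edgeR adjusted p = 1). All 9 estimates were above 0 with TMM, and those of Atg7, Becn1 and Ulk1 fell below 0 with scaling by total counts. Groups did not overlap, with knockout higher, in 5 of the 9 (Wipi1, Atg5, Gabarapl1, Sqstm1 and Trp53inp1), against 13.6% of all genes. The difference between the Myb effect in plasmablasts and in GC B cells called 0 of the 9 (edgeR background 0.00762%, 489 genes with an unadjusted p under 0.05, 0 of them among the 9, and 0 called by DESeq2). For Gabarapl1 that difference was -0.45 (SE 0.40) and for Wipi1 0.39 (SE 0.63) on the log2 scale.

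In Moz knockout GC B cells on day 7, none of the 9 was called (edgeR background 0%, 315 genes with an unadjusted p under 0.05, 1 of them among the 9, and 0 of the 9 called by DESeq2). That 1 was Wipi1, with 69 and 128 counts (2.98 and 3.95 CPM) in knockout and 61 and 77 counts (2.06 and 2.15 CPM) in control pools, without overlap. Its ratio of summed counts was 1.68 (95% interval 1.35 to 2.11, counting error only) and its log2 fold change 0.72 (SE 0.23, unadjusted p = 0.00804, edgeR adjusted p = 1, and 0.125 with the replicate block). The 7 plasma cell markers all had estimates above 0 in the same comparison, with a median of 0.56, and 0 of 7 were called. Their part in the Wipi1 value was not tested. Gabarapl1 was 3.36 and 2.96 CPM against 2.53 and 2.31 CPM, without overlap (log2 0.38, SE 0.26, edgeR adjusted p = 1). Ulk1 was 14.6 and 14.4 CPM against 18.4 and 15.8 CPM (log2 -0.24, SE 0.21, edgeR adjusted p = 1), and Becn1 was the other gene that lay lower without overlap. Groups did not overlap in 2 of the 9 upwards and 2 downwards, against 13.3% and 13.4% of all genes. Trp53inp1 spread most within a group, at 234 and 434 CPM in the 2 knockout pools against 289 and 254 CPM in the controls. The Y-linked Ddx3y also differed between the Moz groups, at 108 and 82.1 CPM without TMM scaling in control and 77.4 and 38.0 CPM in knockout pools. The part of sex in this comparison was not tested.

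**Figure D5:**
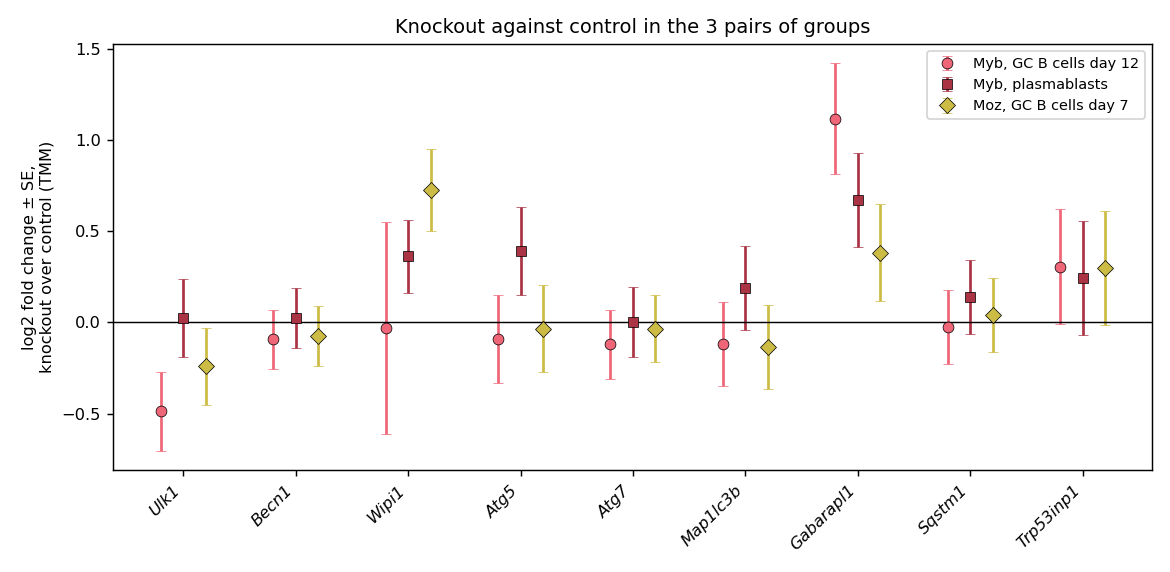
Log2 fold change (± SE derived from the test statistic, TMM) of knockout over control for the 9 genes in Myb GC B cells, Myb plasmablasts and Moz GC B cells. None passed the test; Gabarapl1 lies above 0 in all 3 comparisons at 1.12, 0.67 and 0.38, and Ulk1 lies lowest in the Myb GC comparison at -0.49.

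Over all 6 groups, the order of the mean levels of Wipi1 ran from Myb knockout plasmablasts (80.1 ± 1.62 CPM, SD, n = 2 pools, as for all groups) and control plasmablasts (62.3 ± 5.28 CPM) to Moz knockout (3.46 ± 0.687 CPM) and Moz control (2.10 ± 0.0622 CPM), then Myb control (0.231 ± 0.129 CPM) and Myb knockout GC B cells (0.224 ± 0.0707 CPM). Neighbours in that order did not overlap, except for the last pair. Gabarapl1 ran from 18.1 ± 0.0267 CPM in knockout and 11.4 ± 1.57 CPM in control plasmablasts to 3.16 ± 0.286 CPM in Moz knockout, 3.11 ± 0.523 CPM in Myb knockout, 2.42 ± 0.154 CPM in Moz control and 1.45 ± 0.464 CPM in Myb control GC B cells, and the pools of the Moz and Myb knockouts overlapped. For Atg5, Map1lc3b and Sqstm1, the 4 GC groups overlapped each with the next in order and lay below both plasmablast groups. For Atg7 and Becn1 each group overlapped with the next over all 6.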

How the data were processed

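Whole-gene counts of 27179 genes in 12 libraries were used as deposited. The authors made these read counts with featureCounts on the mm10 build, per the submitters' processing notes; no aligner, tool version or strand setting was stated. The counts per library and in the series table differed in 0 values. Symbols were matched for 25275 Entrez IDs. Genes with low counts were removed (edgeR filterByExpr, minimum count 10, minimum total 15), which left 13131. TMM scaling and edgeR 4.0.16 (R 4.3.3) quasi-likelihood tests were applied to all 6 groups in 1 fit, with 6 residual degrees of freedom and Benjamini-Hochberg adjustment over all genes, called at 0.05. Each library is a separate pool of mice, and 2 against 2 cannot give an exact p below 0.333. Each SE of an edgeR log2 fold change was derived from the test: the absolute log2 fold change over the square root of the quasi-likelihood F statistic. It is not a separately fitted error and can be too small at few counts. For Wipi1 between days it was 0.38, against an SE of 0.64 from DESeq2. RPKM uses the deposited gene lengths. Count intervals are exact at 95% and cover counting error only.

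Replicate numbers share an experiment date within each experiment, per the labels, and same-numbered pools deviated together (correlations 0.600 in Myb GC, 0.453 in Myb plasmablasts and 0.361 in Moz GC), so a fit with the replicate block is given where it changes a call. The block is nested within each experiment and cell type, so it pairs knockout with control and does not pair cell types or days. The plasmablast comparisons and the day comparison share their control libraries with the knockout comparisons. Alternatives were DESeq2 1.42.0, its size factors in edgeR, no filter, the block, no immunoglobulin genes, total-count scalings and leaving out each library, where the lone pool is assumed to vary like the other groups. The 9 genes are named throughout, with the further pathway genes that had the largest called differences. Wipi2, Wdr45 and Wdr45b and the marker examples were chosen after their values were seen. Members and lists were chosen with earlier results of these data known.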

Additional observations from a re-analysis of the deposited data

How the results depend on the processing

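Estimates of the 9 genes kept their sign in all 7 comparisons with DESeq2, with its size factors in edgeR and without immunoglobulin genes. Most changes below concern counts over all genes, or estimates of genes near 0 that were not called, and the cause was not tested. The 2 total-count scalings were chosen after seeing the data.

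Over all genes, the calls were 34 in Myb GC B cells, 5 in Myb plasmablasts, 0 in Moz GC B cells, 181 between days 7 and 12 and 1 for the difference between the Myb effects. With DESeq2 these counts became 161, 50, 11, 358 and 45, and without the filter 320, 104, 55, 501 and 136; each called 2 of the 9 genes between days (1 before). Without the filter Becn1 was -0.065 in control plasmablasts over GC B cells. Without immunoglobulin genes, which also changed the low-count filter so that 12224 genes were tested, the counts were 22 in Myb GC B cells, 0 in Myb plasmablasts and 105 between days.

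With the replicate block, the pairing by date, the counts were 318, 76, 39, 719 and 71; 2 of the 9 and 8 further autophagy genes were called between days, and Atg7 was -0.011 in Myb plasmablasts. The block changed no other call of the 9. For comparisons between days or cell types it takes the spread between dates out of the error.

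With scaling by total counts, 10985 genes were called in control and 11278 in knockout plasmablasts over GC B cells. In control pools Atg5 was -0.58, Atg7 -1.70, Becn1 -1.87, Map1lc3b -0.67, Sqstm1 -0.60 and Ulk1 -1.22. In knockout pools Atg5 was -0.27, Atg7 -1.75, Becn1 -1.92, Map1lc3b -0.53, Sqstm1 -0.60 and Ulk1 -0.89, and Gabarapl1 (0.48, edgeR adjusted p = 0.132) was not called. In Myb GC B cells Wipi1 was 0.052 and Sqstm1 0.057; in Myb plasmablasts Atg7 was -0.0836, Becn1 -0.066 and Ulk1 -0.067; for the difference between Myb effects Atg7 was -0.048 and Becn1 -0.056. With immunoglobulin genes left out as well (12224 genes tested), Atg7 was -0.13 and Becn1 -0.31 in control and -0.087 and -0.26 in knockout plasmablasts over GC B cells. On that scale Wipi1 was 0.068, Atg5 0.012, Becn1 0.0079 and Sqstm1 0.074 in Myb GC B cells, Atg5 0.016 and Atg7 0.013 in Moz GC B cells, and 0 genes were called in Myb plasmablasts and 99 between days.

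Leaving out 1 library at a time gave 0 to 39 genes in Myb GC B cells, 0 to 2 in Myb plasmablasts, 0 to 3 in Moz GC B cells, 19 to 105 between days and 0 to 3 for the difference between Myb effects. Between days it called 0 to 1 of the 9 genes (0 without pool 1 of the day 12 controls) and 0 of the further autophagy genes. Log2 fold changes that crossed 0 ranged from -0.042 to 0.035 for Becn1 in control plasmablasts over GC B cells. Between days they ranged from -0.17 to 0.41 for Atg5, -0.030 to 0.20 for Map1lc3b, -0.10 to 0.20 for Sqstm1 and -0.33 to 0.073 for Ulk1. In Myb GC B cells they ranged from -0.54 to 0.62 for Wipi1, -0.36 to 0.22 for Atg5, -0.27 to 0.017 for Map1lc3b and -0.17 to 0.10 for Sqstm1. In Myb plasmablasts they ranged from -0.24 to 0.23 for Atg7, -0.038 to 0.11 for Becn1, -0.15 to 0.48 for Map1lc3b and -0.048 to 0.13 for Ulk1. In Moz GC B cells they ranged from -0.16 to 0.10 for Atg5, -0.089 to 0.044 for Atg7, -0.10 to 0.20 for Sqstm1 and -0.19 to 0.68 for Trp53inp1. For the difference between Myb effects they ranged from -0.30 to 0.16 for Trp53inp1, -0.25 to 0.90 for Wipi1, -0.11 to 0.36 for Atg7 and -0.022 to 0.61 for Map1lc3b.

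Depth limits Wipi1 most, with 2 to 4 counts in each day 12 library.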
